A study of Populus tremula x Populus alba with 6 samples.

Results

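Proximal upstream promoter peaks of the poplar transcription factor PtrbHLH011 are the regions bound 251 to 1000 bp before an annotated gene start. A peak was taken when the authors' annotation put it in the promoter class and its summit, the base with the most reads, lay in that window upstream of the start of the gene it was assigned to. The start is the first base of the listed transcript in its reading direction. The rule gave 1174 of 18975 peaks on the P. alba chromosome sequences and 1070 of 17040 peaks on the P. tremula sequences, which makes 2244 of 36015 peaks in all. Every one of them also stood in the authors' subclass of promoters within 1 kb.

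The series addresses iron deprivation and cell wall formation in poplar and the part that PtrbHLH011 plays in them. Chromatin immunoprecipitation sequencing was done on mesophyll protoplasts (leaf cells whose walls were digested away) of the hybrid Populus tremula x Populus alba. The labels list 3 libraries precipitated with an anti-Myc antibody and 3 input libraries that saw no antibody. All 6 came from protoplasts that transiently expressed PtrbHLH011 joined to 10 copies of the Myc tag, so the binding is that of a tagged protein supplied from a transgene in isolated cells. The promoter that drove the transgene is not given in the sources used here.

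Basic helix-loop-helix (bHLH) factors bind DNA as pairs of proteins, with the basic stretch of each partner reading one side of a short palindromic site of the E-box type. In plants, the DNA just before a gene start holds the core promoter, and the stretch further upstream holds many of the short sites that regulatory factors read. Several bHLH factors of Arabidopsis switch genes for iron uptake and iron storage on or off. The tables carry no gene names, and the gene lists for iron and the cell wall could not be matched to their identifiers, so the peaks are described here by position, depth and fold.

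Each chromosome set of the hybrid had its own peak list, and the lists are not independent, since the peak names of both carry one tag and most partner peaks have the same number of reads. No value in them can be assigned to a library, since the tag matches no library label. Whether a list rests on 1 library or on several is not known. The depth per library is unknown, and neither the spread between replicates nor ChIP against input could be measured. The intervals and tests below treat peaks as independent and cover counting error within a list only. The labels name no molecular identifiers, so reads may include copies of one molecule. The tag names a step that marks duplicate reads, but whether marked reads were left out is not given. Pileups, folds and q values are the authors'. The pileup is the number of reads stacked at the summit, the fold is that number over the caller's local background with 1 read added to each, and the q value is the caller's p value adjusted for multiple testing. The genome build is not given in the sources used here, and positions hold only on the sequence of the named species.

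The summits filled the whole window, with a modest crowding at its end nearest the gene. The median summit lay 613 bp upstream on P. alba and 592 bp upstream on P. tremula. The fullest 75 bp bin was the one from 251 to 325 bp, with 159 P. alba and 146 P. tremula peaks. The emptiest bin held 99 peaks on P. alba, between 551 and 625 bp, and 83 peaks on P. tremula, between 626 and 700 bp. These counts follow from where the window was laid and are given as a description. The window of the same width inside the gene, 251 to 1000 bp after the start, held more peaks, 2020 on P. alba and 1812 on P. tremula.

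**Figure D1:**
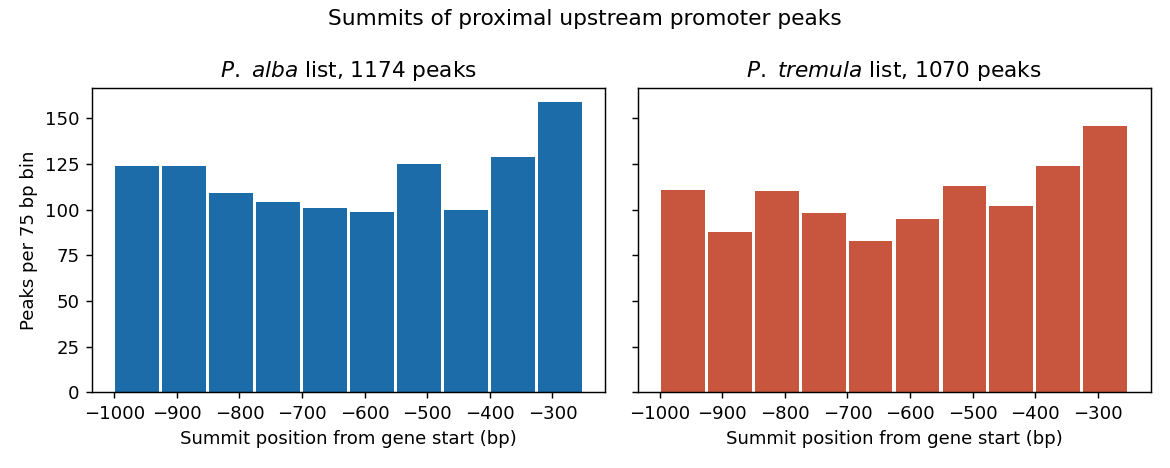
Number of proximal upstream promoter peaks (vertical axis) by the distance of the summit from the gene start in bp (horizontal axis, negative values upstream, bins of 75 bp), for the P. alba list on the left and the P. tremula list on the right. The bin nearest the gene is the fullest in both lists, with 159 and 146 peaks.

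The peaks were short, as were those of the whole lists, and the window itself sets most of them clear of the gene start. Their median length was 124.5 bp on P. alba and 128 bp on P. tremula, against 124 and 128 bp over all peaks. Of the proximal upstream peaks, 64 on P. alba and 61 on P. tremula were longer than 300 bp, and the share over all peaks was not counted. The edge nearest the gene lay a median of 535.5 bp before the start on P. alba and 514 bp on P. tremula. Only 6 P. alba and 7 P. tremula peaks were long enough to reach the start or run past it. The summit sat on the side of the peak's middle that faces the gene in 48.3% of the P. alba peaks and in 48.8% of the P. tremula ones, so the peaks had no lean towards the gene or away from it.

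Most of the peaks were shallow, as were the peaks of the whole lists. Summits under 10 reads made up 80.7% of the P. alba proximal upstream peaks, against 78.5% of all P. alba peaks. On P. tremula it was 81.2% against 77.7%, and the median over all peaks was 7 reads in each list. The summit had a median of 7 reads on both chromosome sets, and 901 P. alba and 832 P. tremula peaks had 5 to 8 reads. The most frequent pileup was 6 reads, in 362 P. alba peaks (30.8%) and 326 P. tremula peaks (30.5%). For 784 P. alba and 699 P. tremula peaks the local background stood at its lowest value, 0.989 and 0.985 reads, and there the fold is only a restatement of the read number. On P. alba, 6 reads then gave a fold of 3.52, 8 reads gave 4.52 and 9 reads gave 5.03. The median fold was 3.52 on P. alba and 3.53 on P. tremula, which is the value of a summit of 6 reads over that lowest background. The median fold over all peaks of each list was the same.

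On P. alba the median fold was higher in each deeper class of summits up to 199 reads and lower beyond that. Summits of 9 to 19 reads had the median fold 4.49 on P. alba, over 152 peaks, and 4.21 on P. tremula, over 119 peaks. Summits of 20 to 49 reads had the median fold 6.22 on P. alba, over 73 peaks, and 5.84 on P. tremula, over 69 peaks. Of these, 64.4% on P. alba and 63.8% on P. tremula had a fold of at least 5. Summits of 50 to 199 reads had the median fold 6.87 on P. alba, over 17 peaks, and 3.58 on P. tremula, over 18 peaks, and 9 and 7 of them reached a fold of 5. Summits of 200 reads or more, 31 on P. alba and 32 on P. tremula, had the lower median folds 2.81 and 2.65. The local background under them was itself deep, with medians of 206 and 194 reads. Summits of 20 reads or more made up 10.3% of the P. alba and 11.1% of the P. tremula proximal upstream peaks. Over all peaks it was 10.8% and 11.6%. Folds by depth class were taken for this window only, so whether other peaks follow the same course is not known.

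**Figure D2:**
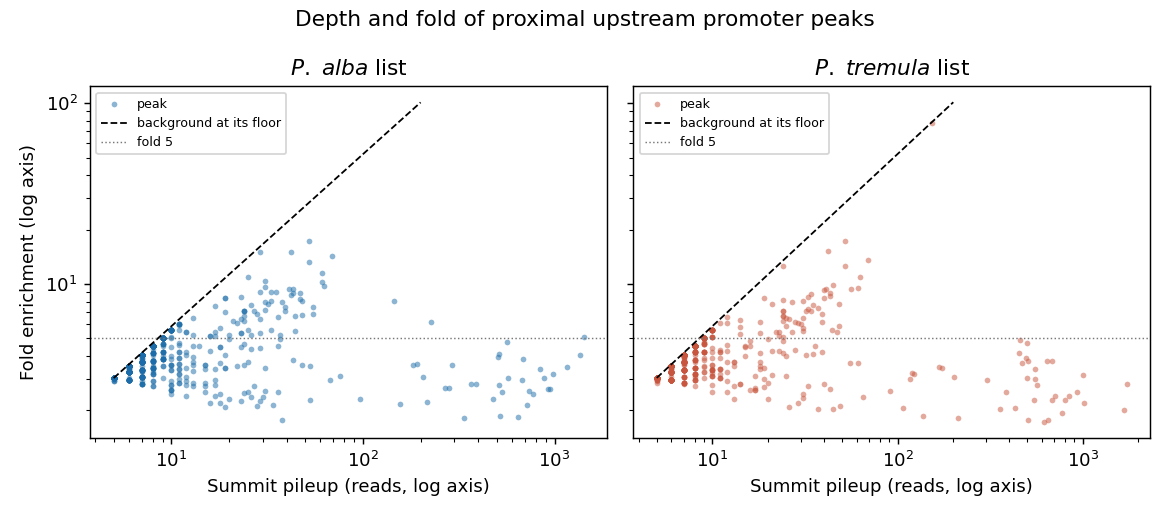
Fold enrichment against summit pileup in reads for each proximal upstream promoter peak, both axes logarithmic, with P. alba on the left and P. tremula on the right. The dashed line is the fold that a pileup gives over the lowest background, the dotted line is a fold of 5, and the deepest summits lie far below the dashed line, at median folds of 2.81 and 2.65 for 200 reads or more.

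Peaks with a fold of at least 5 were more frequent in the proximal upstream window than at the same distance inside genes. On P. alba, 123 of 1174 peaks (10.5%, exact 95% interval 8.78 to 12.4%) reached that fold, against 4.80% of the peaks in the inside-gene window and 8.21% of all P. alba peaks. The odds ratio was 2.32 (95% interval 1.76 to 3.06; Fisher's exact test, adjusted p = 5.06e-08). On P. tremula, 94 of 1070 peaks (8.79%, 7.16 to 10.6%) reached it, against 4.97% inside genes and 8.08% of all P. tremula peaks. The odds ratio was 1.84 (1.37 to 2.49; Fisher's exact test, adjusted p = 0.000664). The P. tremula share in the upstream window was thus close to that over the whole list, and the inside-gene share lay below both. Among P. tremula peaks with a q of at most 0.01 the difference did not pass (1.48, adjusted p = 0.0697 by Fisher's exact test), and among peaks without a partner it passed in neither list. These and the following comparisons of shares used two-sided Fisher's exact tests with Benjamini-Hochberg adjustment over 18 tests.

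Against the peaks at the gene start itself, within 250 bp to either side, the odds ratio was nearer 1 and was called on P. alba only. The share with a fold of at least 5 was 10.5% upstream against 6.97% at the start on P. alba, an odds ratio of 1.56 (1.22 to 2.00; Fisher's exact test, adjusted p = 0.00289). On P. tremula it was 8.79% against 7.10%, an odds ratio of 1.26 (0.961 to 1.65; Fisher's exact test, adjusted p = 0.154). Whether the lists differ in this was not tested. By Fisher's exact test the P. alba call is lost at a fold of 4 in place of 5 (1.09, adjusted p = 0.394) and over the lowest background, where most of the peaks lie (1.24, adjusted p = 0.474). The P. tremula difference passed the exact test at a fold of 6 (1.64, adjusted p = 0.0349), over a raised background (1.81, adjusted p = 0.00622) and with the outer edge at 2000 bp (1.38, adjusted p = 0.00778). Further upstream, 1001 to 3000 bp before the start, 10.7% of the peaks in each list had a fold of at least 5. The odds ratio of proximal against far upstream peaks was 0.975 (0.774 to 1.23; Fisher's exact test, adjusted p = 0.921) on P. alba and 0.804 (0.623 to 1.04; Fisher's exact test, adjusted p = 0.154) on P. tremula.

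Within the window, the P. alba peaks farther from the gene held the larger share of such folds. The share was 7.94% (exact 95% interval 5.56 to 10.9%) from 251 to 500 bp, 9.86% (6.96 to 13.4%) from 501 to 750 bp and 13.8% (10.5 to 17.6%) from 751 to 1000 bp. On P. tremula the shares over the same sections were 8.43% (5.94 to 11.5%), 7.82% (5.07 to 11.4%) and 10.1% (7.11 to 13.7%). All these intervals overlap within a list, and no trend was tested.

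**Figure D3:**
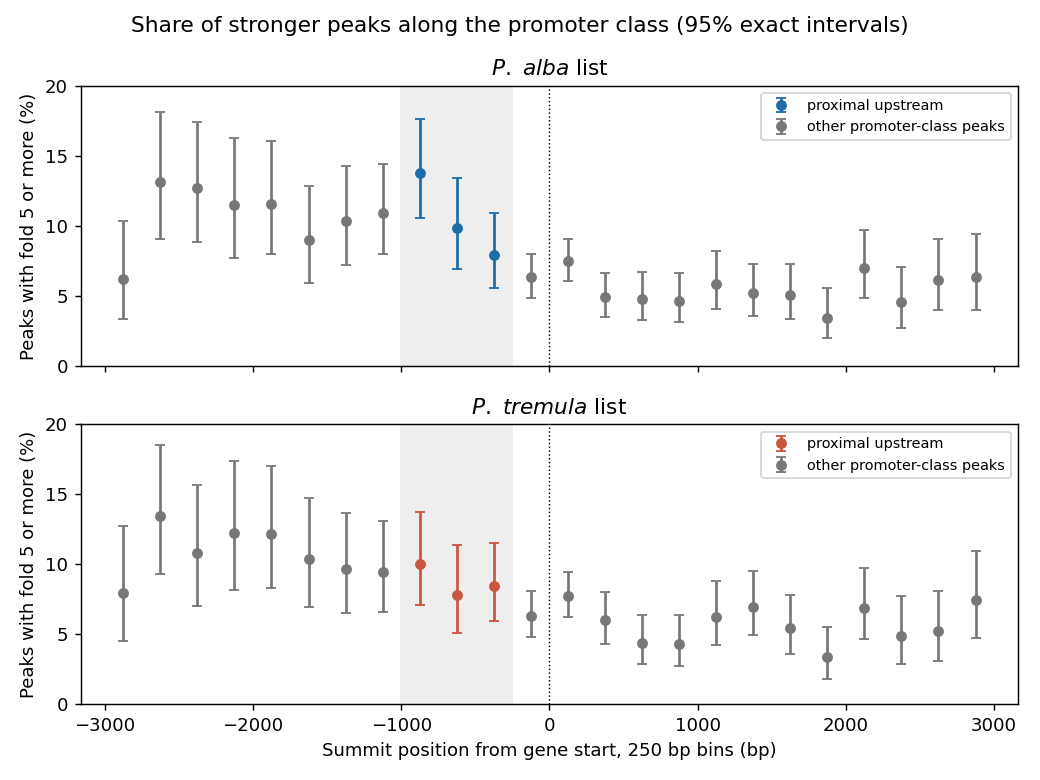
Share of promoter-class peaks with a fold of at least 5 (vertical axis, percent) by summit position from the gene start in bp (horizontal axis, bins of 250 bp), P. alba above and P. tremula below, with exact 95% intervals. The coloured points on the grey band are the proximal upstream peaks, which run from 13.8% in the farthest bin to 7.94% in the nearest on P. alba and from 10.1% to 8.43% on P. tremula; peaks inside genes lie to the right of the dotted line.

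The contrast was also taken within classes of local background. Among peaks over the lowest background, 6.25% of the P. alba proximal upstream peaks had a fold of at least 5, against 2.52% inside genes. On P. tremula it was 4.86% upstream against 2.75% inside genes, and that difference did not pass (odds ratio 1.81, adjusted p = 0.155 by Fisher's exact test). Among peaks over a raised background, 74 of 390 P. alba peaks and 60 of 371 P. tremula peaks (16.2%) reached the fold, against 8.68% and 8.33% inside genes. The lowest background lay under 66.8% of P. alba and 65.3% of P. tremula proximal upstream peaks, against 62.9% and 60.3% of those inside genes.

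By q value the proximal upstream peaks stood a little above those inside genes. The caller's p value behind the q follows from pileup and background, as the fold does. This contrast is therefore not independent of the one by fold. A q of at most 0.05 was given to 869 P. alba peaks (74.0%, exact 95% interval 71.4 to 76.5%), against 68.6% inside genes and 72.6% of all P. alba peaks. The odds ratio was 1.30 (1.11 to 1.53; Fisher's exact test, adjusted p = 0.00410). On P. tremula 803 peaks (75.0%, 72.3 to 77.6%) had such a q, against 69.3% inside genes and 72.9% of all peaks. The odds ratio was 1.33 (1.13 to 1.58; Fisher's exact test, adjusted p = 0.00394). Among peaks over the lowest background these differences did not pass (1.22, adjusted p = 0.236 on P. alba and 1.12, adjusted p = 0.491 on P. tremula, Fisher's exact test). The remaining 305 P. alba and 267 P. tremula peaks had a q above 0.05. Against the start the odds ratio was 1.02 on P. alba (0.865 to 1.19; Fisher's exact test, adjusted p = 0.921) and 1.16 on P. tremula (0.978 to 1.37; Fisher's exact test, adjusted p = 0.154). Over a raised background the P. tremula difference from the start passed the exact test (1.67, adjusted p = 0.00175). Against the far upstream peaks it was 0.947 (0.805 to 1.11) on P. alba and 0.948 (0.797 to 1.13) on P. tremula, with an adjusted p of 0.727 by Fisher's exact test in each list.

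The strongest proximal upstream peaks were largely the same in both lists: 7 genes stood in both sets of the 10 highest folds. This is a description only, since the lists are not independent and most partners have the same number of reads. Folds of 10 or more were rare, in 9 P. alba and 7 P. tremula peaks. On P. alba the highest was upstream of Potri.012G085600, at chr12:11260547-11260693 with its summit 866 bp before the start. This peak had 52 reads and a fold of 17.2. Its P. tremula partner, at chr12:11259698-11259844 and 862 bp before the start, also had 52 reads and a fold of 17.3. The next was on chromosome 13, 805 bp upstream on P. alba and 803 bp on P. tremula, with 42 reads and a fold of 15.1 in each list.

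A peak on chromosome 2 lay 510 bp upstream on both chromosome sets and was narrow, 81 bp on P. alba and 82 bp on P. tremula. It had 29 reads and a fold of 15.1 on P. alba, and 24 reads and a fold of 12.6 on P. tremula, in each case over the lowest background. A longer peak near the beginning of chromosome 15, 398 bp upstream in both lists, had 69 reads on each, with a P. alba fold of 14.2 and a P. tremula fold of 13.6. On chromosome 14, 275 bp upstream in both lists, 52 reads gave a fold of 13.2 on P. alba and 12.6 on P. tremula. The chromosome 2 peak thus differed between the lists in its read number over almost equal backgrounds, and the peaks on chromosomes 15 and 14 had equal read numbers over backgrounds that differed.

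The highest fold of all had no counterpart. It stood on P. tremula upstream of Potri.003G055500, a gene annotated over 303 bp, at chr3:8197694-8197775 with the summit 595 bp before the start. Its summit held 153 reads in a peak only 82 bp long, over the lowest background, which gave a fold of 77.6. The shortest peaks of the P. tremula list were 81 bp long, and whether these 153 reads include copies of one molecule is not known. The P. alba list has no peak at all for this gene. Of the P. alba peaks, one on chromosome 5 at 10760232 to 10760559, 979 bp upstream, had a fold of 11.5 and 61 reads and no partner, although its gene had 3 peaks in the P. tremula list. Another on chromosome 1 at 34922923 to 34923073, 613 bp upstream, had a fold of 10.4 and 31 reads, and its gene had no P. tremula peak.

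**Figure D4:**
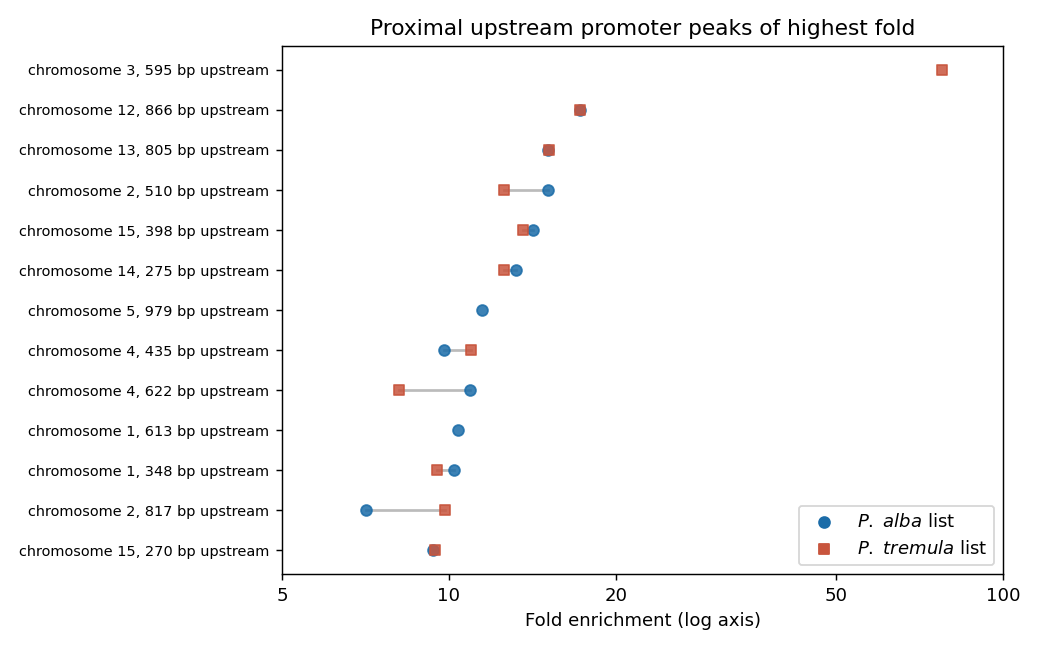
Fold enrichment (horizontal axis, logarithmic) of the proximal upstream promoter peaks that rank among the 10 highest in either list, one gene per line, with circles for P. alba and squares for P. tremula and a grey line joining partners. Marks coincide where both lists give nearly the same fold, as at 17.2 and 17.3 on chromosome 12, while the fold of 77.6 on chromosome 3 stands alone.

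Most proximal upstream peaks had a partner on the other chromosome set. A partner is a peak annotated to the same gene whose summit lies as far from the gene start, give or take 100 bp. One was found for 865 P. alba peaks (73.7%, exact 95% interval 71.1 to 76.2%) and 868 P. tremula peaks (81.1%, 78.6 to 83.4%), against 66.3% of all P. alba and 73.8% of all P. tremula peaks. Peaks outside promoters enter those shares of whole lists, so windows of the promoter class are the closer comparison. Against the peaks inside genes the odds ratio was 0.998 (0.848 to 1.18) on P. alba and 0.953 (0.785 to 1.16) on P. tremula, and neither passed the test.

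Peaks at the start had partners more often, and far upstream peaks less often. The share was 73.7% in the proximal upstream window against 77.6% at the start on P. alba, an odds ratio of 0.806 (0.684 to 0.949; Fisher's exact test, adjusted p = 0.0220). On P. tremula it was 81.1% against 85.6%, an odds ratio of 0.723 (0.594 to 0.880; Fisher's exact test, adjusted p = 0.00410). Far upstream, 69.4% of P. alba peaks had a partner, and 76.4% of P. tremula peaks did. Against them the odds ratios were 1.23 (1.05 to 1.45; Fisher's exact test, adjusted p = 0.0217) and 1.33 (1.10 to 1.60; Fisher's exact test, adjusted p = 0.00646). These 4 calls were all lost among peaks with a q of at most 0.01 (adjusted p = 0.0816 to 0.377), over the lowest background (0.0556 to 0.451) and over a raised background (0.0627 to 0.279), each by Fisher's exact test. At a q of at most 0.05, 3 of them were lost, all but that against the start on P. tremula. The P. alba call against far upstream peaks passed in 7 of 15 alternatives.

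Partners were near copies of each other in depth and place. In 840 of the 893 pairs both peaks lay in the window, and 25 P. alba and 28 P. tremula peaks had a partner just across one of its edges. The pileup was the same in 658 of the 865 P. alba peaks with a partner (76.1%), and the median difference between the partners' distances from the start was 9 bp. The log2 ratio of the P. alba fold to the P. tremula fold had a median of −0.00 and an SD of 0.15 over those 865 pairs. Only 12 pairs differed by more than 1.5 times, 8 with the higher fold on P. alba and 4 with the higher fold on P. tremula. Across pairs the folds had a Spearman correlation of 0.869 over those 865 pairs. This is given as a description, since the lists are not independent and most folds take a few discrete values.

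**Figure D5:**
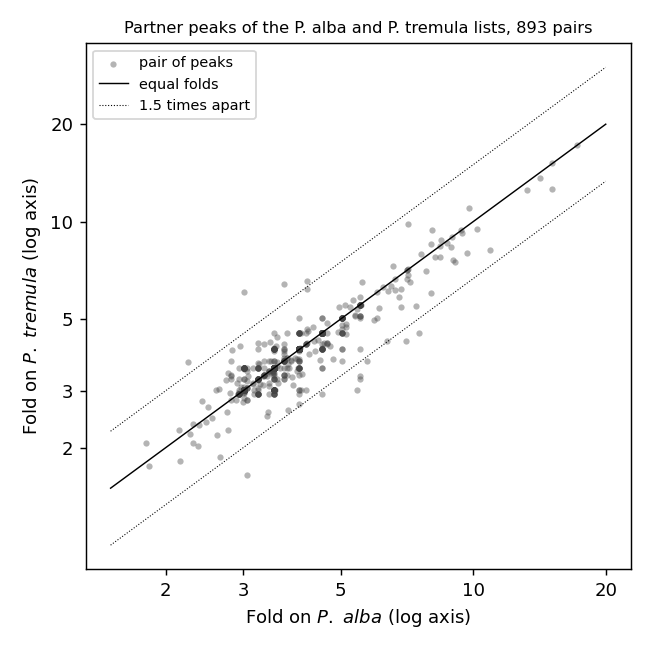
Fold on P. alba (horizontal axis) against fold on P. tremula (vertical axis) for the 893 pairs of partner peaks with at least one in the proximal upstream window, both axes logarithmic. The solid line marks equal folds and the dotted lines a difference of 1.5 times, which 12 pairs exceed.

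Of the 5 pairs that differed most, 1 differed mainly in read number, and the other 4 had closer read numbers over backgrounds that differed. Their summits lay 599 and 517 bp upstream (P. alba and P. tremula) on scaffold_498, 621 and 559 bp on chromosome 10 and 420 and 497 bp on chromosome 14. On chromosome 19 it was 976 and 1002 bp, and on chromosome 5 it was 274 and 192 bp, so these P. tremula partners lay outside the window. Whether such partners are the same site was not tested. On scaffold_498 the P. alba peak had 5 reads with a fold of 3.02, against 12 reads and a fold of 6.05 in the P. tremula partner. On chromosome 10 the partners had 12 reads on P. alba and 11 reads on P. tremula, while the background was 1.39 reads for P. alba against 2.99 for P. tremula, and the folds were 5.45 and 3.01. On chromosome 14 the pileups were 25 reads for P. alba and 26 for P. tremula, the P. tremula background of 3.22 reads lay below the P. alba one, and the folds were 3.71 and 6.40. On chromosome 19 the pileups were 205 reads for P. alba and 173 for P. tremula, over backgrounds of 66.3 and 105 reads, and the folds were 3.06 and 1.64. On chromosome 5 they were 10 and 9 reads, over backgrounds of 0.989 and 2.07 reads, with folds of 5.53 and 3.26. Pairs as far apart as these were few, and none was replicated.

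Peaks without a partner, 309 on P. alba and 202 on P. tremula, held a smaller share of high folds and a larger share of peaks on unplaced scaffolds, as a description. A fold of at least 5 was found in 7.44% of those P. alba peaks, against 11.6% of the P. alba peaks with a partner, and in 3.96% against 9.91% on P. tremula. Unplaced scaffolds carried 7.12% of the P. alba peaks without a partner, against 2.08% of those with one, and for P. tremula 7.92% against 2.07%. For 168 of the 309 P. alba and 104 of the 202 P. tremula peaks without a partner, the gene had no peak of any kind in the other list. How far gaps in the assembly or annotation bear on this was not tested.

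Few genes carried more than one proximal upstream peak. The peaks belonged to 1149 P. alba and 1055 P. tremula genes, and 856 genes had such a peak on both chromosome sets. On P. alba 1125 genes had 1 such peak, 23 had 2 and 1 had 3, and on P. tremula 1040 had 1 and 15 had 2. For genes with 2 such peaks, the distances of the summits from their listed starts differed by a median of 296 bp on P. alba. The range was 26 to 600 bp, and on P. tremula the median was 299 bp with a range of 45 to 724 bp. Where the 2 peaks were measured from different transcript starts, this is not the spacing of the summits. The P. alba gene with 3 was Potri.011G091200, where each peak was measured from a different transcript start, 848, 678 and 627 bp upstream. The transcript listed for the first of these peaks spans 11017472 to 11051161, and by it the summits of the others lay inside the gene. Its peaks had folds of 1.77 to 2.37 over deep backgrounds of 10.4 to 21.0 reads, and the gene had 13 P. alba peaks in all.

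For most of these genes the proximal upstream peak was the only one. It was the sole peak of 686 P. alba and 655 P. tremula genes, and 453 P. alba genes (39.4%) and 392 P. tremula genes (37.2%) had a further peak elsewhere. The other promoter windows were similar. Of the P. alba proximal upstream genes, 40.3% had 2 or more peaks of any kind. The P. alba share was 38.9% for the inside-gene window, 36.8% for the start and 42.9% for far upstream. On P. tremula it was 37.9%, against 35.9%, 33.2% and 39.7% in the same order. Further peaks with the summit anywhere after the start were also counted, inside the gene or past its end. They accompanied the proximal upstream peak in 305 P. alba genes (26.5%) and 264 P. tremula genes. A peak at the start did so in 88 (7.66%) and 79 (7.49%), and one in the inside-gene window in 78 (6.79%) and 66 (6.26%). These classes overlap. The start is not the same for every transcript of a gene. By another listed transcript of the same gene, 18 P. alba and 14 P. tremula proximal upstream peaks lay inside the gene, and 31 P. alba and 26 P. tremula summits fell inside a neighbouring gene that has a peak of its own.

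The deepest proximal upstream peaks were gathered on chromosome 13. The stretch from 14600000 to 14899999 held 128 P. alba and 134 P. tremula peaks of all kinds. Of these, 18 in each list were proximal upstream peaks. These proximal upstream peaks included 13 of the 21 P. alba and 11 of the 22 P. tremula ones with at least 500 reads. Their pileups ran from 268 to 1423 reads on P. alba and from 91 to 1735 on P. tremula, over median backgrounds of 284 and 267 reads, and their median folds were 2.66 and 2.34. On P. alba the deepest pair stood before Potri.013G139200, a gene annotated over 198 bp. One summit lay 740 bp upstream with 1423 reads and a fold of 5.06, and the other 296 bp upstream with 1357 reads and a fold of 4.07. No partner was found for either. The third P. alba peak by pileup had 1166 reads and a fold of 3.45. On P. tremula the 3 highest pileups were 1735, 1663 and 1019 reads, with folds of 2.78, 2.02 and 2.19. The peaks of 1663 and 1019 reads were 2065 and 2307 bp long and ran past the gene start. With every peak of that stretch left out of all windows, the odds ratio of a fold of at least 5 against inside-gene peaks was 2.31 on P. alba and 1.85 on P. tremula. Since the median folds of the 18 peaks lay well under 5, leaving them out could change these shares only little. At least 500 reads were found in 21 of 1174 P. alba and 22 of 1070 P. tremula proximal upstream peaks. Over all peaks it was 213 of 18975 and 206 of 17040. It was 48 of 2020 and 41 of 1812 inside genes, and 43 of 2237 and 50 of 2028 at the start. Far upstream it was 16 of 2192 and 19 of 1991. How many deep peaks of other windows lie in that stretch was not counted.

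Elsewhere the peaks were spread over all 19 chromosomes, with the most on chromosome 1, 127 P. alba and 118 P. tremula peaks, and the fewest on chromosome 19, 25 and 22. They made up 8.36 to 13.7% of the promoter-class peaks of a chromosome or of the scaffolds on P. alba and 8.63 to 14.0% on P. tremula.

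The values next to the edges of the window are given for P. alba. Just inside the inner edge, P. alba summits at 251 bp had 6 and 7 reads and folds of 3.52 and 3.71, and just outside it, at 250 bp, they had 6 and 7 reads and folds of 3.52 and 4.02. Just inside the outer edge, P. alba summits at 1000 bp had 8 and 7 reads with folds of 4.52 and 4.02, and just outside it, at 1001 bp, they had 6 and 29 reads with folds of 3.52 and 6.72.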

How the data were processed

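The values come from the authors' deposited peak tables, 1 for P. alba and 1 for P. tremula sequences. The submitters' processing notes name the read aligner BWA 0.7.17.2, the peak caller MACS2 2.2.7.1 and, for gene annotation, ChIPseeker 1.18.0. The sources used here give neither the calling options nor the genome build, nor which libraries lie behind a table. The tables hold for every peak, per the file headers, a pileup (a read coverage signal), a fold (a ratio to local background) and −log10 p and q values. Each peak stood in 2 rows and was counted once.

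The background was recovered as (pileup + 1) / fold − 1. It returned the deposited −log10 p value within 0.01 for 1172 of 1174 P. alba and all 1070 P. tremula peaks of the window. Shares have exact (Clopper-Pearson) 95% intervals, odds ratios normal-approximation 95% intervals, and two-sided Fisher's exact tests were adjusted (Benjamini-Hochberg) over 18 tests, 3 measures by 3 windows by 2 lists. Pairing and tests were tested on simulated data. Python 3.11.15, pandas 2.3.3, numpy 2.4.6 and scipy 1.17.1 were used.

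Peaks are named by a rule: the 10 highest folds and 3 highest pileups per list, the 5 pairs of largest difference, the edges of the window and the gene with most peaks. Not every peak that the rule picked is described. The window, lists and tests were chosen with earlier results of these data known. The gene lists prepared for iron and the cell wall had 0 matches, because the tables give no gene names, and no list was tested. No sequences were available for the summits.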

Additional observations from a re-analysis of the deposited data

How the results depend on the processing

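Odds ratios below compare proximal upstream peaks with another window, with p-values adjusted over the family of tests. Dropping the promoter annotation from the rule changed no peak, so its 18 odds ratios equal the reported ones and are not counted. Of 270 odds ratios under the other 20 settings, 207 kept their direction and side of 0.05, 32 lost the call, 8 gained one and 23 changed direction. None of those 23 was called with its direction changed. The settings by background, partner, transcript starts and the chromosome 13 stretch were chosen after seeing the data.

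Against inside-gene peaks, by Fisher's exact test the fold share on P. tremula was 1.48 (p = 0.0697) among peaks with a q of at most 0.01. By the same exact test, over the lowest background the q share was 1.22 (p = 0.236) on P. alba and 1.12 (p = 0.491) on P. tremula, and the fold share on P. tremula 1.81 (p = 0.155). Among peaks without a partner the fold share by the exact test was 1.95 (p = 0.145) on P. alba and 1.32 (p = 0.833) on P. tremula, and the q share 1.34 (p = 0.167) and 1.15 (p = 0.755). These settings hold fewer peaks. With the outer edge at 2000 bp the partner share passed the exact test, at 0.859 (p = 0.0155) on P. alba and 0.761 (p = 0.000162) on P. tremula, and the cause was not tested. The partner share turned to 1.07 and 1.02 (P. alba and P. tremula) at a q of at most 0.05, to 1.22 and 1.04 at 0.01 and to 1.05 and 1.04 at or above the median fold. On P. alba alone it was 1.003 by peak middle, 1.002 on the 19 chromosomes and 1.01 with one peak per gene.

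Against the start and far upstream peaks, 24 odds ratios lost the call, 22 of them partner shares and 2 the P. alba fold share against the start, and 6 gained one. The partner call passed in 10 of 15 alternatives (P. alba) and 11 (P. tremula) against the start, and in 7 and 10 against far upstream peaks. Of those gained, 3 were P. tremula fold shares against the start (1.38 to 1.81) and 3 its q shares, 1.19 with the outer edge at 2000 bp, 1.67 over a raised background and 1.71 without partners. Uncalled values also changed direction. Against the start, the q share was 0.984 on P. alba with the inner edge at 500 bp, and over the lowest background 0.884 on P. alba and 0.945 on P. tremula, where the P. tremula fold share was 0.834. Against far upstream peaks, the P. alba fold share was 1.03 at a q of at most 0.01, 1.13 with the inner edge at 500 bp, 1.11 over the lowest and 1.03 over a raised background, and 1.46 without partners; on P. tremula it was 1.01 at a fold of 4. The q share was 1.02 and 1.07 (P. alba and P. tremula) over a raised background and 1.03 and 1.20 without partners.

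The number of peaks became 482 (P. alba) and 447 (P. tremula) at a q of at most 0.01, to 759 and 682 at or above the median fold, to 746 and 655 with the inner edge at 500 bp, and to 2433 and 2206 with the outer edge at 2000 bp. No paired analysis was possible because no value can be assigned to a library. For the same reason leaving out a replicate, ChIP against input and overlap of replicates were not run. Summits of 5 to 8 reads cannot reach a fold of 5, so depth limits every share by fold.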

Other observations

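Short peaks were common among the proximal upstream ones, and lengths were much the same over the whole lists. The lower quartile was 96 bp on P. alba and 99 bp on P. tremula, against 96 and 100 bp over all peaks. In the window, 352 P. alba and 281 P. tremula peaks were at most 100 bp long, with a median of 6 reads in each list. Of these, 15 on P. alba and 17 on P. tremula held 20 reads or more, and 13 and 7 had a fold of at least 5. The deepest short P. alba peak, on chromosome 19 and 976 bp upstream, had 205 reads and a fold of 3.06 in 100 bp, and the next P. alba one had 67 reads. Its P. tremula partner, 1002 bp upstream, had 173 reads and a fold of 1.64. In the window, the deepest short P. tremula peaks had 168 and 153 reads, and the chromosome 3 peak with the fold of 77.6 had 153.

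Proximal upstream summits fell inside a neighbouring gene with a peak of its own in 2.64% of cases on P. alba and 2.43% on P. tremula, against 5.43% and 5.17% of far upstream summits. Genes without a peak are not in the tables, so these shares are lower limits, and the difference was not tested.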
